A study of Mus musculus with 16 samples.

Results

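The genes that encode the proteasome were followed in RNA from mouse spermatozoa. They were taken as every row of the deposited gene table whose symbol is Psm followed by a letter from a to g and a number, which gave 48 of 24062 gene rows. Of these, 47 had enough counts to be tested for a difference between diets. Psmb11, which encodes the beta subunit of the thymus proteasome, was the exception, with 2 counts in 1 library and 0 in the other 15 libraries.

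The proteasome is the barrel-shaped protease that degrades proteins tagged with ubiquitin. Its 20S core is a stack of alpha rings (Psma genes) and beta rings (Psmb genes), with the protease sites carried by Psmb5, Psmb6 and Psmb7. The 19S cap, whose base unfolds substrates with the Psmc ATPases and whose lid removes ubiquitin, sits on the ends of the core. Activators (Psme genes) can take the place of the cap, Psmf1 encodes an inhibitor of the core, and the Psmg genes encode chaperones that build it. Some subunits have alternative forms: Psmb8, Psmb9 and Psmb10 replace Psmb5, Psmb6 and Psmb7 in the interferon-induced immunoproteasome. In male germ cells Psma8 takes the place of Psma7 in the alpha ring of the spermatoproteasome, a form known for its part in meiosis, and Psme4 (PA200) is the activator known for histone removal in spermatids.

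Males fed a modified D12492 high-fat diet (HFD) gave 8 libraries, and males fed its control diet (CD) gave another 8. Males were 3 weeks old at the start and stayed on the diet for 9 weeks, after which motile sperm were collected. The labels used here name no strain or genotype, and the series gives 8 mice per diet, so each library was treated as 1 animal. Libraries were made from cDNA amplified from 2 ng of RNA, and 250 ng of cDNA entered each library. Sperm carry RNA left from their precursors, and a bulk library cannot tell fewer cells of a type from less RNA per cell.

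The smallest library, HFD 4, held 1882555 gene counts and the largest, CD 2, held 7783981. Proteasome genes took 0.463% of the gene counts in HFD 4, 0.437% in HFD 8 and 0.243% to 0.379% in the other 14 libraries. HFD 4 and HFD 8 stood apart from the other 14 libraries in markers of germ cells and of the epididymal duct. The summed level of 20 late spermatid markers, in CPM (counts per 1e6 gene counts), was 22747 in HFD 4 and 55804 in HFD 8 against 2391 to 13262 in the rest. The sum of 20 meiotic markers was 3890 and 3152 in these libraries against 185 to 1083, and that of 20 epididymal epithelium markers was 14052 and 10606 against 35981 to 86112. Mael was the largest part of the meiotic list, with a median of 236 CPM over all 16 libraries and a maximum of 1787. Syce2 followed with a median of 93.5, and 13 of the 20 meiotic markers had enough counts to be tested. A list of 16 leukocyte markers summed to 1579 in HFD 4, 2178 in HFD 8 and 2075 to 5529 elsewhere. Cd52, which the epididymal duct also makes, was most of this sum in the other 14 libraries, but not in HFD 4 or HFD 8. The remaining 15 markers summed to 1029 in HFD 4, 1592 in HFD 8 and 286 to 1054 elsewhere. Of the Sertoli cell list, Amh had 0 counts in every library, and the 7 markers other than Clu summed to 10.6 in HFD 4 and 17.6 in HFD 8 against 22.0 to 66.4 elsewhere. The Leydig cell list summed to 26.0 in HFD 4, 43.5 in HFD 8 and 41.3 to 118 elsewhere. Reads assigned to no annotated feature made up 76.1% in HFD 4 and 75.0% in HFD 8 against 58.0% to 67.9% in the rest. Fold changes between the diets are therefore given with all 16 libraries and, for each member described with its own fold change and SE, also without HFD 4 and HFD 8. The part these markers and read shares play in them was not tested.

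The diets were first compared gene by gene. No proteasome gene passed the test, and the levels of the 2 diets overlapped for every one of them. With edgeR's quasi-likelihood test and Benjamini-Hochberg adjustment over all 13149 genes tested, 0 of the 47 proteasome genes were called, as were 0 of all genes. At an unadjusted p under 0.05 there were 5 of 47, all higher in HFD, where 11.3% of all genes passed, 10.2% higher and 1.1% lower. They were Psmf1, Psma6, Psmc2, Psmc3 and Psme4, described below by their roles. With 1 library left out, the count of 5 became 1 without HFD 4 and 0 without HFD 8. It was 3 without CD 3, CD 4 or CD 7, and 4 to 6 with any other library left out. The shares of all genes in these fits are not given here, so these counts cannot be set against the whole table. DESeq2, which also fitted Psmb11, called 0 of 48 (0.0049% of all genes) and gave 4 at an unadjusted p under 0.05 (11.1%). Limma-voom with quality weights called 0 and gave 0 at the unadjusted threshold, where 3.8% of all genes passed. The log2 fold changes of the 47 genes were positive for 25 and negative for 22, with a median of 0.03, where 49.6% of all genes were positive and their median was -0.0042. Without HFD 4 and HFD 8, edgeR called 0 of 47 and 0 had an unadjusted p under 0.05, where 2.17% of all genes did, and the median was 0.05. The share of all genes whose diets did not overlap was 0.00761%, and that of proteasome genes was 0 of 47.

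**Figure D1:**
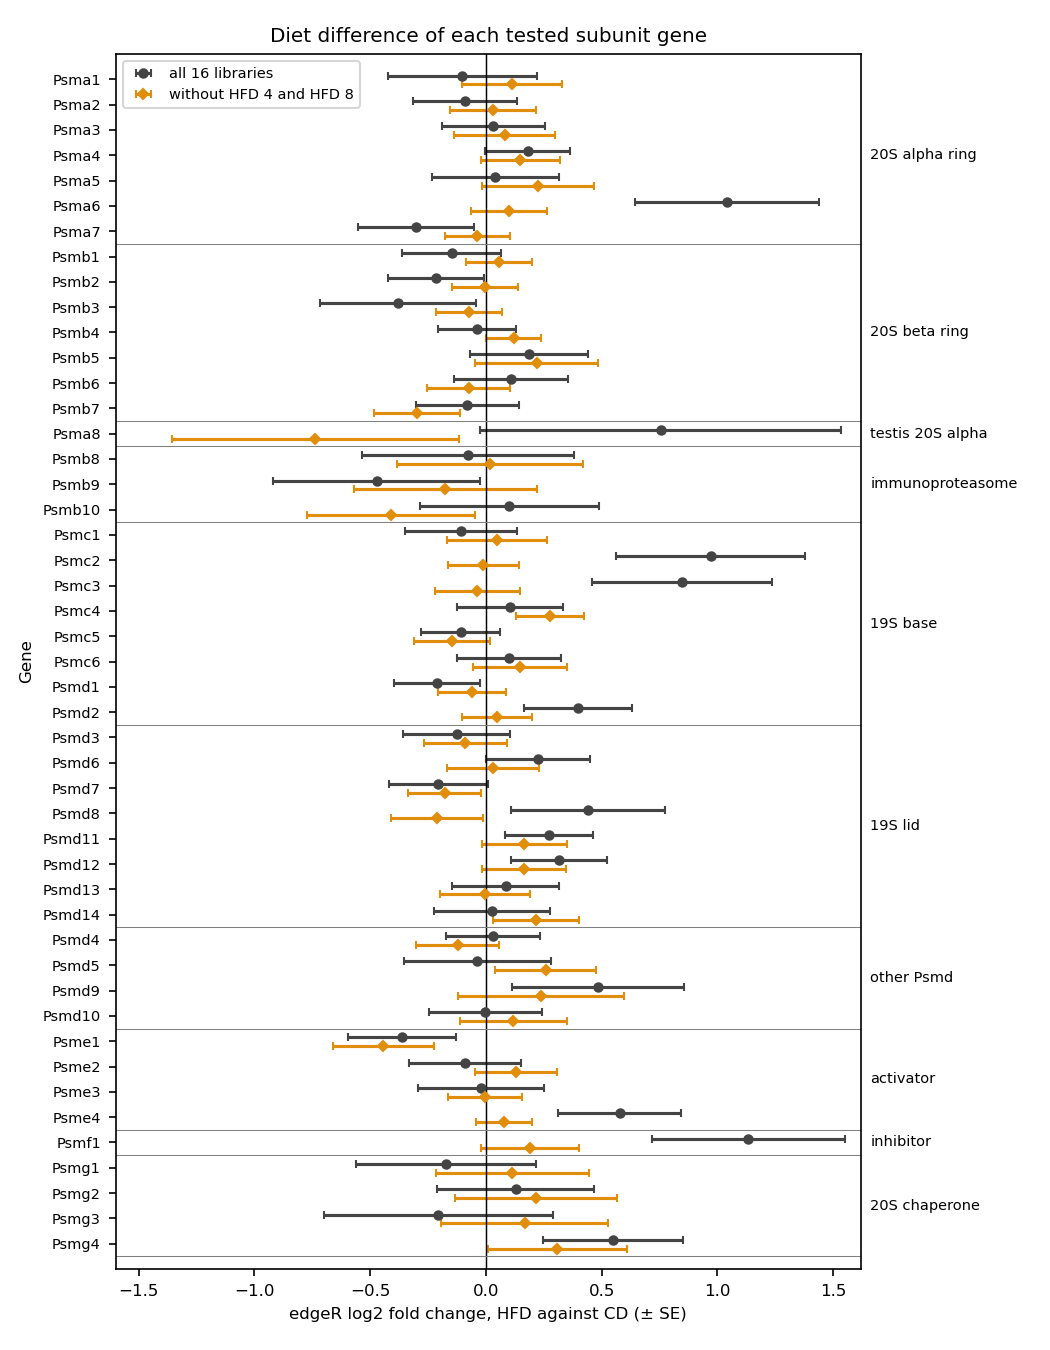
Log2 fold change of HFD against CD (horizontal axis) for the 47 tested proteasome genes, grouped by role, with bars of 1 SE; circles use all 16 libraries and diamonds leave out HFD 4 and HFD 8. The circles of Psmf1 (1.13) and Psma6 (1.04) lie farthest to the right and their diamonds, at 0.19 and 0.10, lie near 0.

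The level of each gene was put on a scale that allows genes to be ranked, as counts per kilobase of its longest coding transcript per 1e6 gene counts. The ranks depend on that choice of transcript. Its length was 2911 bases for Psma2 and 2846 for Psma3 but 1042 for Psma6, and the forms present in these libraries were not determined. By the median over 16 libraries, the alpha ring genes Psma6 (156) and Psma7 (151) were the highest, followed by the beta ring genes Psmb4 (105) and Psmb2 (86.4) and by Psme2 (86.4), a subunit of the interferon-inducible PA28 activator. Among the lowest were the alternative core subunits, with Psma8 at 7.09, Psmb9 at 6.92, Psmb10 at 4.95 and Psmb8 at 4.82, beside the chaperone genes Psmg3 at 6.94 and Psmd9 at 4.98. The constitutive counterparts of these genes had medians of 151 for Psma7, 60.6 for Psmb6, 74.8 for Psmb7 and 15.7 for Psmb5. Psmb5 was the lowest of the 7 beta ring genes by this median, at rank 36 of the 48 genes. The other 20S chaperone genes, Psmg4 (19.5), Psmg1 (10.3) and Psmg2 (9.83), were also in the lower part of the ranking. The levels of Psme1 and Psme2, which form 1 ring together, were 65.1 and 86.4, and that of Psme4 was 42.1.

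All other levels of single genes are CPM scaled by the trimmed mean of M-values (TMM), and are compared only within a gene. Across the 14 libraries other than HFD 4 and HFD 8, the steadiest proteasome gene was Psmb4, with a coefficient of variation of 11.6%, followed by Psmb3 at 12.0% and Psme4 at 12.2%. The most variable tested gene was Psma8 at 84.8%, then Psmb9 at 56.1%, Psmb8 at 52.7% and Psmd9 at 50.4%. Psmb10 stood at 40.3%. These variable genes are also among the low ones, and in these 14 libraries their smallest counts were 5 for Psma8, 14 for Psmb8 and 15 for Psmb9.

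**Figure D2:**
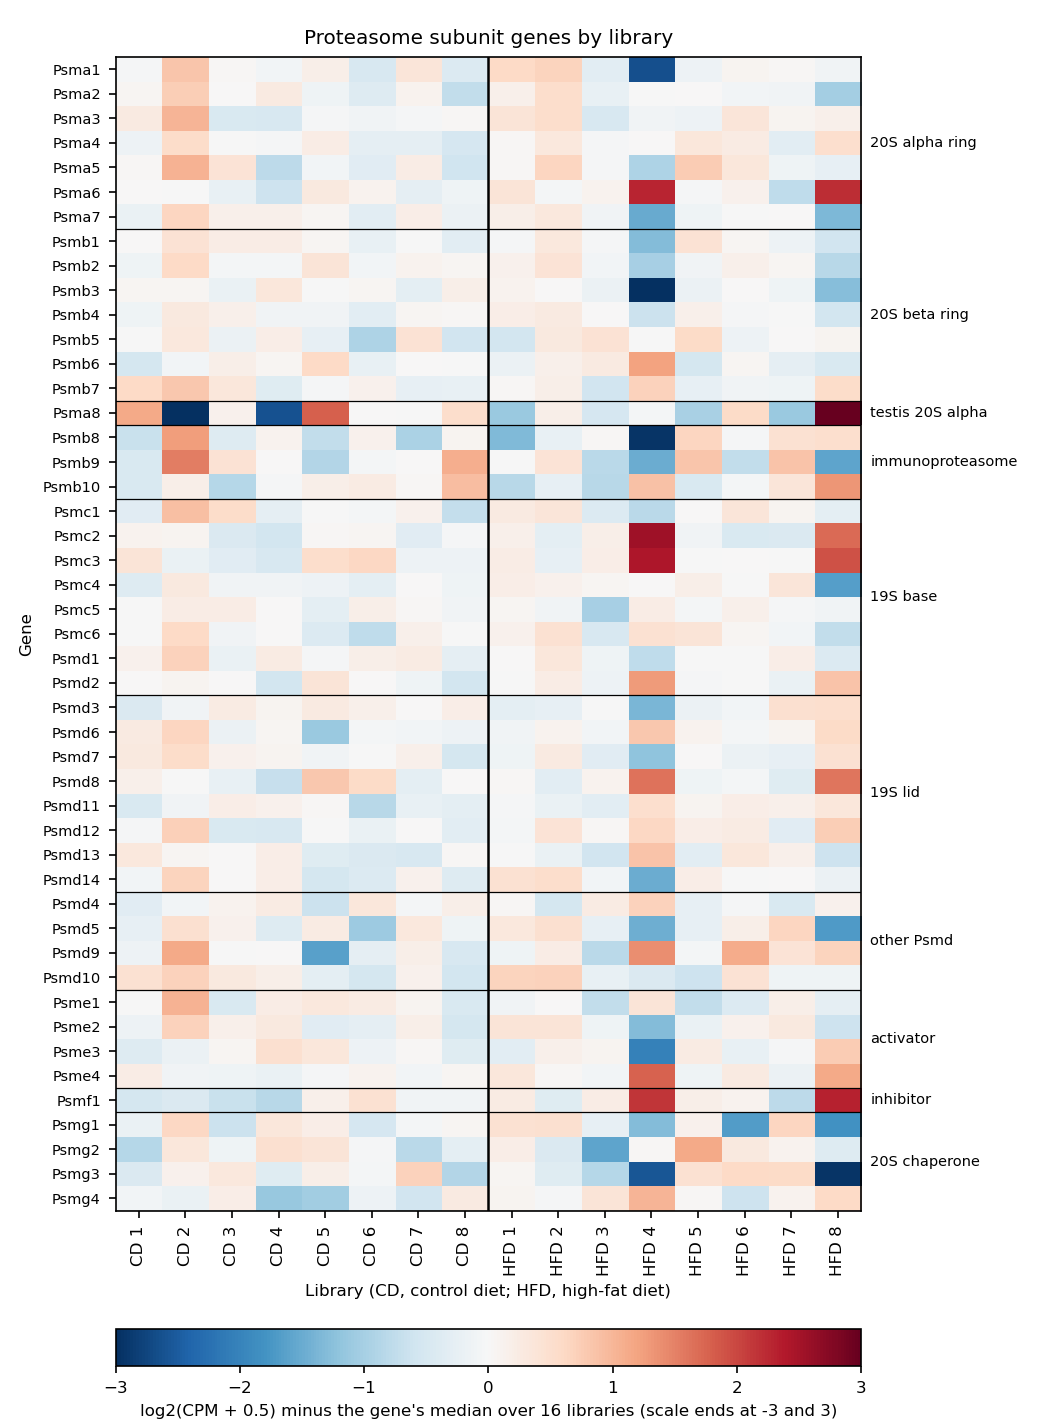
Level of the 47 tested proteasome genes (rows, by role) in each library (columns, CD left and HFD right), as log2(CPM + 0.5) minus the gene's median over 16 libraries; red is above the median, blue below. HFD 4 and HFD 8 hold most of the deep colours, in both directions, and CD 2 is red over much of the 20S core.

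The 7 constitutive alpha ring genes showed 1 member, Psma6, with an unadjusted p under 0.05, where 11.3% of all genes passed. Psma6 ran from 91.3 CPM in HFD 7 to 765 in HFD 4 with a median of 170 in HFD, and from 101 to 190 with a median of 149 in CD. HFD 4 and HFD 8, at 765 and 721, were 4.97 and 4.69 times as high as the median over the other 14, and the remaining HFD libraries overlapped the CD range. On the log2 scale the edgeR fold change was 1.04 ± 0.40 (SE, adjusted p = 0.434) and was 0.10 ± 0.16 without HFD 4 and HFD 8. Psma7, the subunit next to it in level per length, lay at the other end in the same libraries. Its CPM ran from 61.3 in HFD 4 to 220 with a median of 169 in HFD, and from 142 to 277 in CD 2 with a median of 191 in CD. HFD 8 was the next lowest at 68.7, so both libraries lay below every other one while the other 6 HFD libraries lay within the CD range. Its log2 fold change was -0.30 ± 0.25 (SE, edgeR adjusted p = 0.691), and -0.037 ± 0.14 without HFD 4 and HFD 8. The fold changes of the 7 genes had a median of 0.03, with 4 positive and 3 negative.

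The 7 constitutive beta ring genes had no member at an unadjusted p under 0.05 (11.3% of all genes). Their log2 fold changes ran from -0.38 for Psmb3 to 0.19 for Psmb5 with 2 positive and 5 negative. Psmb3, a structural subunit of the ring, had 3.57 CPM in HFD 4, from 6 counts, and 20.9 in HFD 8 against 41.8 to 65.1 in the other 14 libraries. By edgeR the difference was -0.38 ± 0.34 on the log2 scale (SE, adjusted p = 0.711), and -0.073 ± 0.14 without HFD 4 and HFD 8. Psmb1, Psmb2 and Psmb4 were likewise lowest in these 2 libraries. The protease subunits did not share that pattern: Psmb6, which carries the caspase-like site, had its highest value in HFD 4 (117 CPM) and 36.6 in HFD 8, within the range of 34.7 to 76.4 of the rest. Psmb7, which carries the trypsin-like site, had 132 in HFD 4 and 119 in HFD 8, both within 53.7 to 141. Psmb5, which carries the chymotrypsin-like site, had 14.3 and 15.3, at about the median of 14.3 of the rest. The log2 fold changes were 0.11 ± 0.25 for Psmb6, -0.08 ± 0.22 for Psmb7 and 0.19 ± 0.25 for Psmb5 (SE). Without HFD 4 and HFD 8, Psmb6 turned to -0.075 ± 0.18, Psmb7 was the lowest of the beta ring at -0.30 ± 0.19, and Psmb5 was 0.22 ± 0.27.

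Psma8, the germ cell alpha subunit, had the highest coefficient of variation of the tested proteasome genes, as given above. In HFD it ran from 5.17 CPM in HFD 7 to 145 in HFD 8 with a median of 9.76, and in CD from 1.06 in CD 2 to 42.4 in CD 5 with a median of 12.5. HFD 8 was thus 12.2 times the median of the other 14 libraries. HFD 4, which had the highest meiotic marker sum of all, had 11.3 CPM of Psma8, or 0.957 times that median. The HFD libraries had a mean of 26.5 ± 48.0 CPM and the CD libraries one of 15.7 ± 13.5 (SD, n = 8 each). The HFD mean without HFD 8 was 9.56 ± 4.84 (n = 7). The edgeR log2 fold change was 0.76 ± 0.78 (SE, adjusted p = 0.752) with all libraries and -0.74 ± 0.62 without HFD 4 and HFD 8. The sign of this value rested on HFD 8: without that library alone it was -0.70.

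The immunoproteasome genes were low and uneven, and CD 2 held the top value for Psmb8 and Psmb9. Psmb8 ran from 0.595 CPM in HFD 4, from 1 count, to 12.8 with a median of 7.98 in HFD, and from 3.88 to 19.7 in CD 2 with a median of 7.20 in CD. Psmb9 ran from 2.79 in HFD 8 to 17.4 with a median of 7.32 in HFD, and from 4.85 to 28.2 in CD 2 with a median of 9.45 in CD. Psmb10 ran from 3.42 to 17.1 in HFD 8 with a median of 5.84 in HFD, and from 3.40 to 12.8 with a median of 7.03 in CD. The ranges overlapped for all 3 genes, and HFD 4 and HFD 8 lay below the rest for Psmb9 while HFD 8 alone lay above the rest for Psmb10. The edgeR log2 fold changes were -0.08 ± 0.46 for Psmb8, -0.47 ± 0.45 for Psmb9 and 0.10 ± 0.39 for Psmb10 (SE, adjusted p = 0.961, 0.731 and 0.938). Without HFD 4 and HFD 8 they were 0.019 ± 0.40, -0.18 ± 0.40 and -0.41 ± 0.36, so the signs of Psmb8 and Psmb10 turned. B2m, the light chain of major histocompatibility complex class I, was also highest in CD 2, at 11704 CPM against 1422 to 4598 in HFD. The leukocyte marker sum of CD 2 was the lowest of the 8 CD libraries, 2075 with Cd52 and 286 without it, and its epididymal sum of 86112 was the highest of all. Psmb9 shares part of its locus with Tap1 on the other strand, and Psmb8 and Psmb10 with predicted genes on the other strand, so their counts may include reads of these genes, since the strand setting of the counting is not given in the sources used here.

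Each alternative subunit was then set against the one it replaces, as a log2 ratio of counts within a library, which needs no scaling between libraries. The mean log2 ratio of Psma8 to Psma7 was -3.50 ± 2.07 in HFD and -4.28 ± 2.06 in CD (SD, n = 8 each), a difference of 0.78. It spanned -7.94 in CD 2 to 1.07 in HFD 8, the single library with more counts of Psma8 than of Psma7. The log2 ratio of Psmb8 to Psmb5 was -1.32 ± 1.19 in HFD and -0.87 ± 0.89 in CD, with CD 2 and CD 6 above 0 at 0.13 and 0.24. That of Psmb9 to Psmb6 was -2.78 ± 1.38 and -2.20 ± 0.93, and that of Psmb10 to Psmb7 was -3.64 ± 0.56 and -3.70 ± 0.82. No difference passed a two-sided exact permutation test over the 12870 assignments of libraries to diets. The exact p values were 0.473, 0.437, 0.350 and 0.850 in that order, and after Benjamini-Hochberg adjustment over the 4 ratios they were 0.631, 0.631, 0.631 and 0.850. The smallest p this design allows is 0.000155. Without HFD 4 and HFD 8 the differences were -0.16, -0.15, -0.05 and -0.12.

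**Figure D3:**
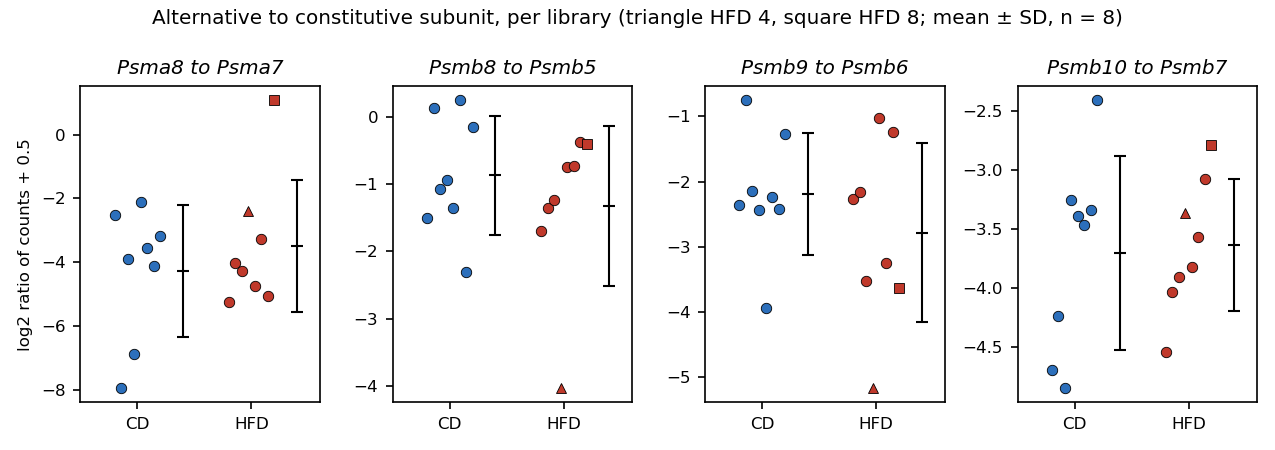
Log2 ratio of counts of the alternative to the constitutive subunit (vertical axis) in each library by diet, with the mean and SD beside the points (n = 8); the triangle is HFD 4 and the square HFD 8. Psma8 to Psma7 covers the widest range, from -7.94 in CD 2 to 1.07 in HFD 8, and the diets overlap in all 4 panels.

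In the 19S base, 2 of 8 genes had an unadjusted p under 0.05 (11.3% of all genes), Psmc2 and Psmc3, both ATPases of the unfolding ring. Psmc2 ran from 76.5 CPM to 616 in HFD 4 with a median of 108 in HFD, and from 72.1 to 114 with a median of 106 in CD. Psmc3 ran from 61.7 to 393 in HFD 4 with a median of 78.9 in HFD, and from 52.6 to 112 with a median of 65.9 in CD. HFD 4 and HFD 8 were the top pair for both genes, at 616 and 344 CPM for Psmc2 and 393 and 276 for Psmc3, while the other HFD libraries lay close to or within the CD range. Fold changes by edgeR on the log2 scale were 0.97 ± 0.41 for Psmc2 and 0.85 ± 0.39 for Psmc3 (SE, adjusted p = 0.434 and 0.437), and -0.01 ± 0.15 and -0.04 ± 0.18 without these libraries. The other ATPase genes, Psmc1, Psmc4, Psmc5 and Psmc6, had fold changes between -0.11 and 0.11. The scaffold subunits of the base differed from each other: Psmd2 was 202 and 151 CPM in HFD 4 and HFD 8 against 57.1 to 110, and Psmd1 was 52.4 and 66.6 against 73.0 to 143. Their log2 fold changes were 0.40 ± 0.23 and -0.21 ± 0.19 (SE), and 0.049 ± 0.15 and -0.061 ± 0.15 without these libraries.

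In the 19S lid, 0 of 8 genes had an unadjusted p under 0.05 (11.3% of all genes). Psmd8 had the highest fold change of the lid, 0.44 ± 0.33 (SE, edgeR adjusted p = 0.657), and Psmd7 the lowest, -0.21 ± 0.21 (adjusted p = 0.753). Without HFD 4 and HFD 8, Psmd8 turned to -0.21 ± 0.20, the lowest of the lid, and Psmd7 was -0.18 ± 0.16. Psmd8 ran from 59.1 CPM to 238 in HFD 4 with a median of 75.6 in HFD, and from 47.1 to 134 with a median of 76.2 in CD. HFD 4 and HFD 8, at 238 and 234, were 3.19 and 3.13 times as high as the median of the rest, and the other libraries of the 2 diets overlapped. Psmd7 ran from 30.9 in HFD 4 to 98.7 in HFD 8 with a median of 64.7 in HFD, and from 49.7 to 106 with a median of 77.6 in CD. The 2 libraries that stood apart were thus at opposite ends of HFD for Psmd7. Psmd14, which encodes the deubiquitinase of the lid, had 18.4 CPM in HFD 4 and 46.0 in HFD 8 against 36.0 to 83.7, and Psmd11, a scaffold subunit, had 55.3 and 49.5 against 21.5 to 44.8.

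Of the 4 activator genes, Psme4 alone had an unadjusted p under 0.05, where 11.3% of all genes passed. It ran from 242 CPM to 926 in HFD 4 with a median of 302 in HFD, and from 237 to 316 with a median of 263 in CD. HFD 8 followed at 597, and the other 6 HFD libraries lay between 242 and 343, which overlapped CD. The edgeR log2 fold change was 0.58 ± 0.27 (SE, adjusted p = 0.442) and 0.08 ± 0.12 without HFD 4 and HFD 8. The interferon-inducible pair Psme1 and Psme2 did not show this. Psme1 had 90.5 and 56.5 CPM in HFD 4 and HFD 8 against 40.7 to 141, and Psme2 had 31.5 and 50.9 against 54.1 to 127. Psme3, which encodes the nuclear activator PA28 gamma, split the 2 libraries, with its lowest value in HFD 4 (23.2) and its highest in HFD 8 (165) around a range of 74.0 to 135. The fold changes were -0.36 ± 0.23, -0.09 ± 0.24 and -0.02 ± 0.27 for Psme1, Psme2 and Psme3 (SE), and -0.44 ± 0.22, 0.13 ± 0.18 and -0.0043 ± 0.16 without these libraries, which turned the sign of Psme2. Psme1 was the gene with the smallest unadjusted edgeR p of these without HFD 4 and HFD 8, at 0.056.

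Psmf1, which encodes the PI31 protein, had the highest fold change of all 47 genes. It ran from 37.3 CPM to 320 in HFD 8 with a median of 74.0 in HFD, and from 36.1 to 88.9 with a median of 53.8 in CD. HFD 4 was second at 287, and these libraries were 4.80 and 5.34 times the median of the other 14. The HFD libraries had a mean of 124 ± 112 CPM and the CD libraries one of 56.2 ± 17.6 (SD, n = 8 each), and the other 6 HFD libraries one of 63.7 ± 16.1. The edgeR log2 fold change was 1.13 ± 0.42 (SE, unadjusted p = 0.0138, adjusted p = 0.434) and 0.19 ± 0.21 without these libraries.

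**Figure D4:**
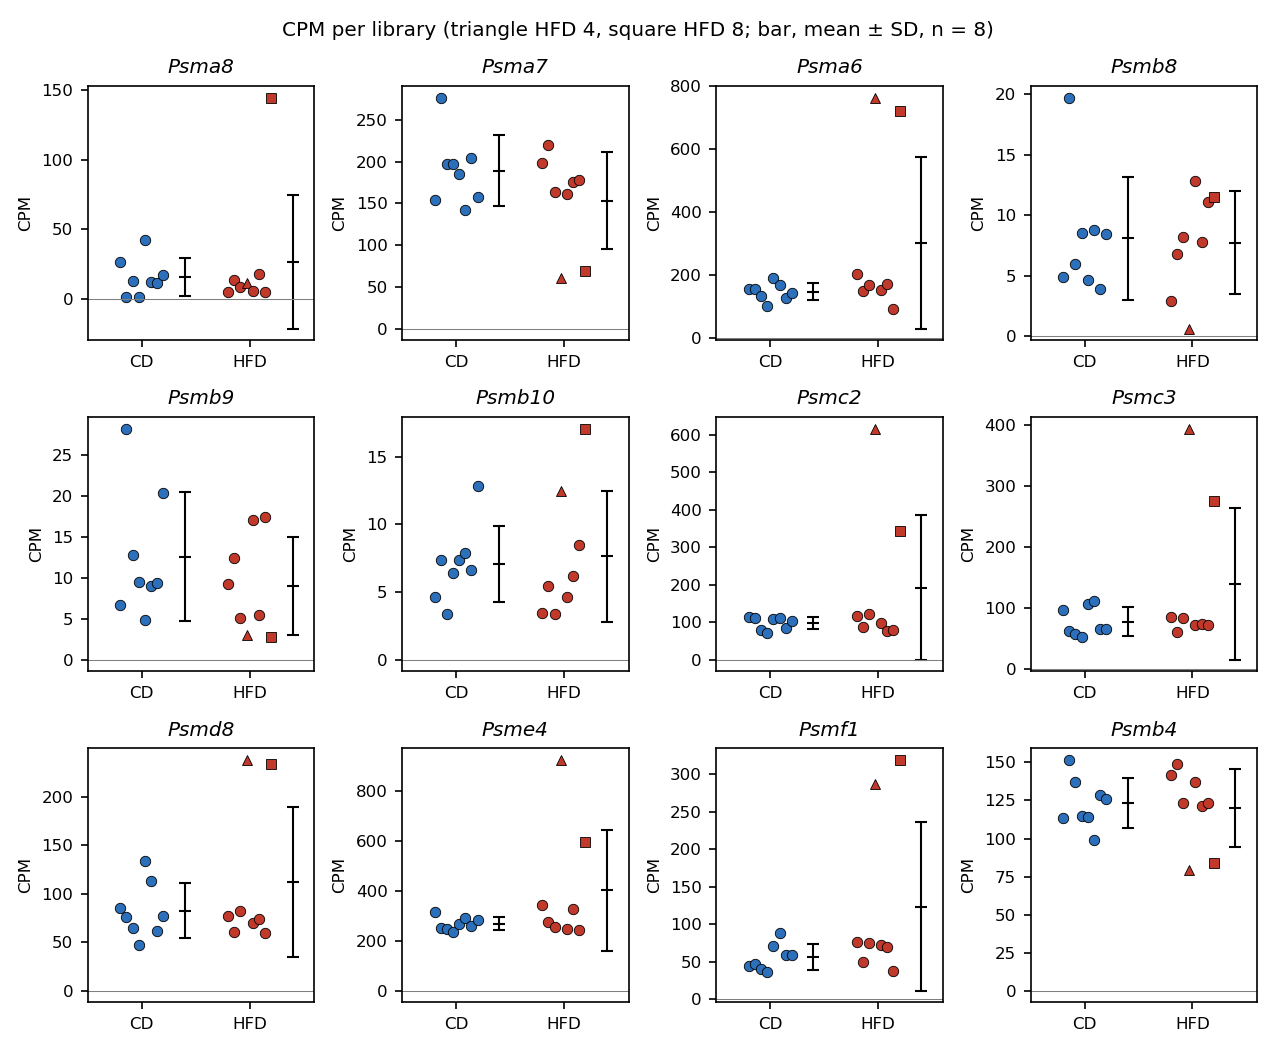
CPM (vertical axis, each panel on its own scale) of 12 proteasome genes in each library by diet, with the mean and SD beside the points (n = 8); the triangle is HFD 4 and the square HFD 8. Psma6, Psmc2, Psmc3, Psmd8, Psme4 and Psmf1 have both marked libraries on top, Psma7, Psmb4 and Psmb9 have both at the bottom, and Psma8 has HFD 8 alone on top.

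The 20S chaperone genes were low, and 0 of 4 had an unadjusted p under 0.05 (11.3% of all genes). Psmg4 ran from 6.72 CPM to 22.0 in HFD 4 with a median of 11.4 in HFD, and from 4.58 to 12.8 with a median of 9.34 in CD. Its edgeR log2 fold change was 0.55 ± 0.30 (SE, adjusted p = 0.507), and 0.31 ± 0.30 without HFD 4 and HFD 8. Psmg3 had 1 count in HFD 4 and in HFD 8 against 3.04 to 9.97 CPM elsewhere, and a fold change of -0.21 ± 0.49, which turned to 0.17 ± 0.36 without them. Psmg1 had 4.17 and 2.79 CPM in HFD 4 and HFD 8 against 3.10 to 17.4. Of the other Psmd genes, Psmd9, an assembly chaperone of the 19S base, had the highest fold change at 0.48 ± 0.37, with 35.1 CPM in HFD 4 as its top value. Psmd5, another such chaperone, had the lowest at -0.04 ± 0.32, with 16.7 and 13.9 CPM in HFD 4 and HFD 8 against 21.8 to 73.2. Without these libraries Psmd9 was 0.24 ± 0.36 and Psmd5 turned to 0.26 ± 0.22, the highest of the 4 other Psmd genes.

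Counted gene by gene, HFD 4 and HFD 8 did not shift the proteasome genes in 1 direction. The genes' summed share of gene counts, Rn45s included, was nonetheless highest in these libraries, at 0.463% and 0.437% against 0.243% to 0.379% elsewhere. HFD 4 alone was above the other 14 libraries for 14 of 47 genes (30.3% of all genes) and below them for 18 (36.9%), and HFD 8 was above them for 14 (29.9%) and below them for 14 (31.7%). Both libraries were above all other 14 for 9 of 47 genes (21.8% of all genes) and below all other 14 for 10 of 47 (22.6% of all genes), shares near those of the table as a whole. The 9 genes above were Psma6, Psmc2, Psmc3, Psmd2, Psmd8, Psmd11, Psme4, Psmf1 and Psmg4. The 10 below were Psma7, Psmb1, Psmb2, Psmb3, Psmb4, Psmb9, Psmd1, Psmd5, Psme2 and Psmg3. Of the 7 constitutive beta ring genes, 4 were in the second group and 0 in the first, while Psmb5, Psmb6 and Psmb7 were in neither. Psmb9 of the second group is an immunoproteasome gene. This split by role was seen after the lists were drawn and was not tested. The germ cell and epididymal marker sums given above move with these 2 libraries. Their part in the pattern was not tested.

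CD 2 stood out in another way. It had the highest value of the 16 libraries for 19 of 47 proteasome genes, where this held for 11.9% of all genes tested. They were Psma1, Psma2, Psma3, Psma4, Psma5 and Psma7 of the alpha ring, Psmb2, Psmb4 and Psmb7 of the beta ring, Psmb8 and Psmb9, Psme1 and Psme2, Psmc1 and Psmc6, and Psmd1, Psmd7, Psmd10 and Psmd14. It had the lowest value for 1 gene, Psma8, where 5.62% of all genes were lowest there. CD 2 also had the largest gene count (7783981), the lowest late spermatid sum (2391) and the highest epididymal sum (86112), and the part of these in its proteasome values was not tested. No proteasome gene was called by edgeR without CD 2.

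Promoters of the proteasome genes were then looked at, with those highest or lowest in both HFD 4 and HFD 8 as sets. The sizes of these sets, 9 and 10 of 47, were near the shares of all genes (21.8% and 22.6%). RefSeq windows on GRCm38.p6, from 250 bases before to 50 after a start, were found for 40 of the 48 genes. Stretches of 120 bases next to the start are shown for 4 genes that were highest and 2 that were lowest in both libraries. They serve as examples of the sequences, and capitals mark a motif searched for.
Psma6, chr12:55384102-55384221, plus strand: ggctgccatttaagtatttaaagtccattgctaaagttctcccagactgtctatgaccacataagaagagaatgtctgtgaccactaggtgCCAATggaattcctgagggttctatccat
Psmd8, chr7:29180674-29180793, minus strand: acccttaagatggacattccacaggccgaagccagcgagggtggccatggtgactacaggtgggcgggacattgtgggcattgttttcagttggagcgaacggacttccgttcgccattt
Psmf1, chr2:151741311-151741430, minus strand: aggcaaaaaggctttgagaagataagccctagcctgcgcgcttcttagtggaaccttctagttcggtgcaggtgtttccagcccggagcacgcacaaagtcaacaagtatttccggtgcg
Psmg4, chr13:34162844-34162963, plus strand: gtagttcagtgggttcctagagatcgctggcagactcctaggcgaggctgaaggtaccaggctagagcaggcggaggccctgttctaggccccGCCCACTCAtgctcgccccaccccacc
Psme2, chr14:55591102-55591221, minus strand: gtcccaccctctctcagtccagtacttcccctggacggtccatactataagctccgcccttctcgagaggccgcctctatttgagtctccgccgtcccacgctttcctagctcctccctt
Psmg3, chr5:139826895-139827014, minus strand: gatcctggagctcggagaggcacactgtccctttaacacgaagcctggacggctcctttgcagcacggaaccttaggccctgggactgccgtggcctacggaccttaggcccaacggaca
Motifs were searched on both strands of the whole window. The letters TGANNNNGC, the core of the antioxidant response element that the proteasome regulators Nfe2l1 and Nfe2l2 bind, were in 23 of 40 genes (57.5%), against 45.0% of all genes with a window. CCAAT, the box bound by NF-Y, was in 14 of 40 (35.0%) against 41.1%. The interferon-stimulated response element was in 5 of 40 (12.5%) against 3.99%, namely Psmb3, Psmd4, Psmd9, Psme1 and Psmg4. TGACGTCA, the cAMP response element that Crem binds in spermatids, was in 0 of 40 against 2.03%. In the stretches above, the capitals are the CCAAT box of Psma6 and, in Psmg4, GCCCACTCA, the reverse complement of a TGANNNNGC match. Of the genes highest in both HFD 4 and HFD 8, 8 had a window and 5 of these held TGANNNNGC. Of those lowest in both, 8 had a window and 7 held it, where 45.0% of all genes with a window did. A difference between these sets was not tested. A match of these letters is a description of the window only. More than 1 start window was listed for Psma6, Psmc2 and Psme2, 3 of 40 genes (7.5%) against 15.4% of all genes.

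Whether the subunit genes followed germ cell RNA was described over the 14 libraries other than HFD 4 and HFD 8, as correlations of log2 CPM with the log2 marker sums. All 13149 genes were correlated with both sums, with 100000 permutations for each p and Benjamini-Hochberg adjustment over the 26298 relations. With the meiotic sum, 3 of 47 proteasome genes had a positive correlation with both adjusted p values under 0.05, where 6.05% of all genes did, and 0 had a negative one (1.31% of all genes). Psmd8 had r = 0.83 and rho = 0.92 (permutation test, adjusted p = 0.00477 and 0.00434), and r = 0.74 without the 2 libraries farthest from the median sum, HFD 7 and CD 4. Psmc3 had r = 0.80 and rho = 0.85 (adjusted p = 0.0138 and 0.0104) and r = 0.84 without them, and Psma6 had r = 0.81 and rho = 0.81 (adjusted p = 0.00895 and 0.0204) and r = 0.62 without them. These 3 genes are among those highest in both HFD 4 and HFD 8, as were 21.8% of all genes. The share among all genes with such a correlation was not counted, so this overlap is a description only. Psma8 had r = 0.74 and rho = 0.67 (adjusted p = 0.0299 and 0.0842), so 1 of its 2 measures missed the threshold. Within the 8 CD libraries its r was 0.89, and within the 6 HFD libraries it was 0.14. Psmd9 also passed on 1 measure only, in the negative direction, with r = -0.60 and rho = -0.75 (permutation test, adjusted p = 0.124 and 0.0416).

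With the late spermatid sum, 3 of 47 genes had a negative correlation that passed on both measures (2.18% of all genes), and 0 had a positive one (5.1% of all genes). Psme2 had r = -0.90 and rho = -0.89 (permutation test, adjusted p = 0.00174 and 0.0034), and r = -0.85 without CD 2 and CD 5, the libraries farthest from the median. Psma7 had r = -0.73 and rho = -0.75 (adjusted p = 0.0319 and 0.0431) and r = -0.77 without them. Psmd14 had r = -0.73 and rho = -0.75 (adjusted p = 0.042 and 0.0439) and r = -0.55 without them, and within the 6 HFD libraries its r was -0.17 against -0.93 within the 8 CD libraries. Psme2 and Psma7 were also below the rest in both HFD 4 and HFD 8, as were 22.6% of all genes. The share among all genes with such a negative correlation was not counted, so this overlap too is a description only. The genes named for 1 sum had the same sign with the other. With the late spermatid sum r was 0.70 for Psmd8, 0.61 for Psmc3 and 0.56 for Psma6. With the meiotic sum it was -0.69 for Psme2, -0.59 for Psma7 and -0.58 for Psmd14. The points share each library's composition: the 3 lowest epididymal sums of the 14 libraries, 35981 in CD 6, 39045 in CD 8 and 44009 in CD 5, stood in libraries with late spermatid sums of 9155, 12711 and 13262, while HFD 5 had a late spermatid sum of 10256 with an epididymal sum of 60445. The part of the epididymal RNA in these correlations was not tested. On 1 measure only, Psmd9 (rho = -0.79), Psma2 (r = -0.72) and Psmd1 (r = -0.72) passed with a negative correlation with the late spermatid sum. Psmd8 (r = 0.70) did so with a positive one. Over all 47 genes the median r was -0.29 with the late spermatid sum and -0.28 with the meiotic sum, against -0.07 and -0.08 over all genes.

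**Figure D5:**
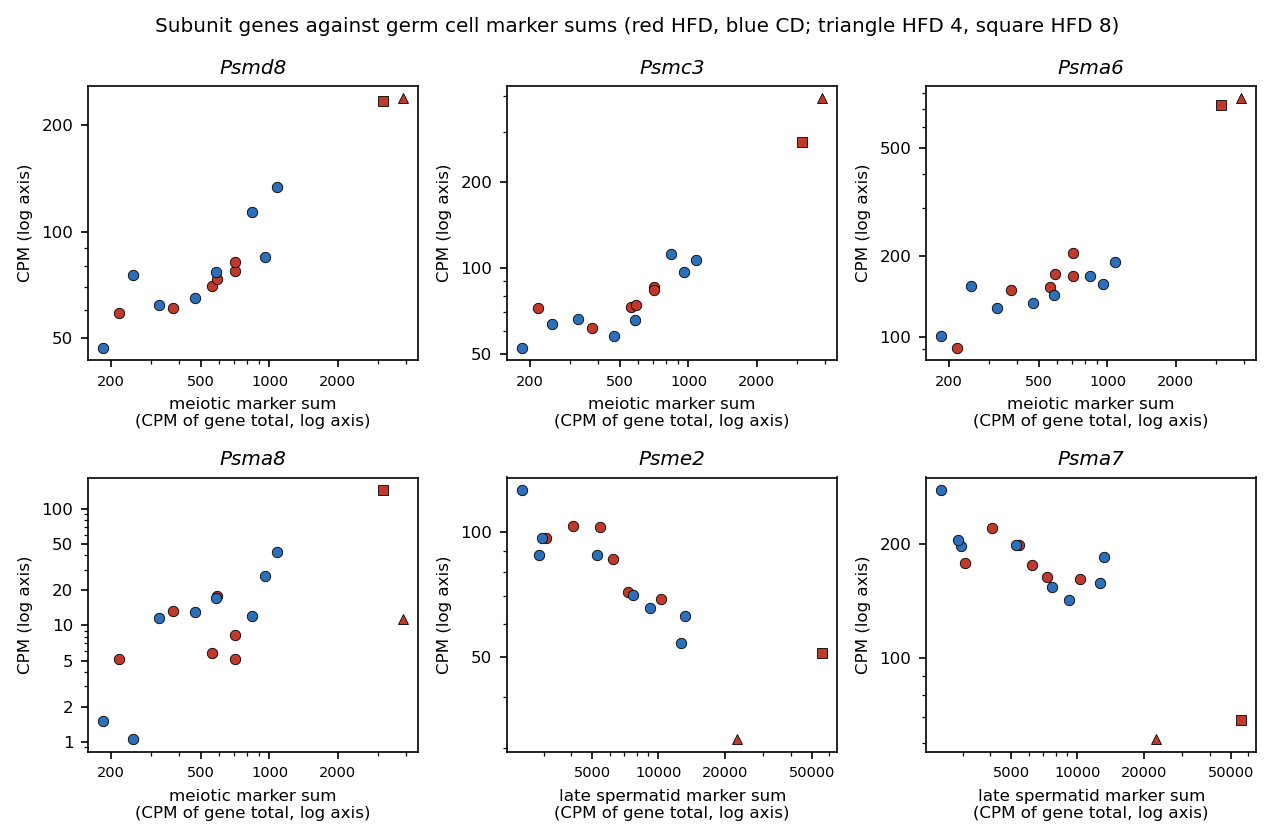
CPM (vertical log axis) of 6 proteasome genes against the summed level of meiotic markers (Psmd8, Psmc3, Psma6, Psma8) or late spermatid markers (Psme2, Psma7) on a horizontal log axis, per library; red is HFD, blue CD, the triangle HFD 4 and the square HFD 8. Psmd8, Psmc3 and Psma6 climb with the meiotic sum, Psme2 and Psma7 descend with the late spermatid sum, and the triangle lies far below the square for Psma8.

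The genes that work with the proteasome were taken from a list of 50, of which 46 could be tested. EdgeR called 0 of 46, and 2 had an unadjusted p under 0.05 (11.3% of all genes), both higher in HFD. With 1 library left out, this count of 2 ran from 0 (without HFD 4, CD 4, CD 6, CD 7 or CD 8) to 4 (without HFD 5). The shares of all genes in those fits are not given here. In all, 21 of the 46 genes had a positive and 25 a negative log2 fold change, with a median of -0.01. Of the list, 6 were above (21.8% of all genes) and 13 were below (22.6% of all genes) all other 14 libraries in both HFD 4 and HFD 8. The 4 of smallest p were Shfm1, Ngly1, Akirin2 and Adrm1. Shfm1, which encodes the small lid subunit SEM1, had 184 CPM in HFD 4 and 74.6 in HFD 8 against 37.9 to 78.3, and a fold change of 0.53 ± 0.24 (SE, edgeR adjusted p = 0.435). Without HFD 4 alone it was 0.27. Ngly1, the glycanase that activates the transcription factor Nfe2l1, had 302 and 347 CPM in HFD 4 and HFD 8 against 34.8 to 122, and a fold change of 1.03 ± 0.47 (adjusted p = 0.437). Akirin2, which brings proteasomes into the nucleus, had 223 and 180 against 29.2 to 72.5, and 0.79 ± 0.40 (adjusted p = 0.472). Adrm1, the ubiquitin receptor of the cap, had 48.2 and 49.2 against 12.0 to 41.7, and 0.43 ± 0.27 (adjusted p = 0.582). Without HFD 4 and HFD 8 the fold changes of the 4 genes were 0.24, 0.01, -0.15 and 0.20. The transcription factor Nfe2l1 itself had 26.2 and 56.1 CPM in these libraries against 67.6 to 118, below all others, and the core maturation factor Pomp had 85.7 and 53.0 against 65.7 to 121. By group, 1 of 19 genes of the particle, its assembly and recruitment, 1 of 6 of its transcription, 0 of 6 of the p97 segregase, 0 of 7 of ubiquitin supply and 0 of 8 of interferon-induced antigen processing had an unadjusted p under 0.05.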

How the data were processed

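Proteasome genes were studied in RNA-seq of mouse spermatozoa, 8 HFD and 8 CD libraries. The deposited table gives, for each library, whole-number read counts for every gene symbol, without normalisation. The submitters' processing notes list the mm10 build and, with no role or order, DESeq2 1.0.19, HTSeq 1.0.0 and STAR. For the annotation and the strand setting nothing is stated in the sources. The members and lists were chosen with earlier results of these data known. Members are rows whose symbol is Psm, a letter from a to g and a number. Genes named with values are the alternative core subunits and their counterparts, the activators, Psmf1, those with an unadjusted p under 0.05 and the extremes of each role. Others named were chosen after their values were seen.

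The 5 summary rows of the counting program, which held 58.0% to 76.1% of reads as no feature and 15.8% to 30.7% as not uniquely aligned (15.9% in HFD 4 and 15.8% in HFD 8, 18.6% or more elsewhere), stayed out of library sizes and tests. The diet test was that of edgeR 4.0.16 under R 4.3.3 (TMM, expression filter by diet, robust quasi-likelihood F-test, two-sided, diet as the sole term, Benjamini-Hochberg over 13149 genes, threshold 0.05). The script was tested on simulated data. Alternatives were DESeq2 1.42.0, limma-voom 3.58.1 with quality weights, other edgeR settings, a replicate block, leaving out each library and, chosen after earlier results were known, both HFD 4 and HFD 8. The correlations were also chosen after that. Ratios added 0.5 to each count, and correlations used log2(CPM + 0.5). Marker sums are counts per 1e6 gene counts of each library, Rn45s included. Gene lengths and overlaps are from GENCODE M21. Amplified reads without molecular identifiers are not independent molecules.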

Additional observations from a re-analysis of the deposited data

Results flagged for a closer look

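In 9 of 56 groups of 8 libraries tested (16.1%), the highest or lowest library lay farther from its nearest neighbour than Dixon's 95% critical value for 8 samples (0.526) allows. Chance flags about 1 in 20 groups chosen without regard to their values, but the genes here were chosen in part for extreme fold changes and share the same libraries, so that rate is no yardstick for this count. CD 2 was the outlying library in 5 of them, as the highest CD value of Psma7 (277 CPM), Psmb8 (19.7), Psmd1 (143), Psmd9 (29.2) and Psme1 (141). HFD 8 was the outlying library for Psma8 (145 CPM) and for the log2 ratio of Psma8 to Psma7 (1.07). HFD 4 was the outlying library for Psmb6 (117 CPM) and for the log2 ratio of Psmb8 to Psmb5 (-4.03), where Psmb8 had 1 count. A gap to the nearest neighbour can miss libraries that lie far from the rest together. Psma6, with 765 CPM in HFD 4 and 721 in HFD 8, was not flagged. The flags therefore do not rank the libraries by how far they stood apart.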

How the results depend on the processing

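No proteasome gene and no gene of the pathway list was called under any of 24 settings each, with the smallest adjusted p 0.221 and 0.245. Of the values under an alternative, 748 kept direction and side of the threshold and 52 changed sign, none of them a called value. With limma-voom the log2 fold change became -0.018 for Psma8, -0.344 for Psmb10, -0.018 for Psmb6, 0.254 for Psmd5, -0.032 for Psmd8 and 0.15 for Psme2. Without both HFD 4 and HFD 8 it became -0.74 for Psma8, -0.41 for Psmb10, -0.075 for Psmb6, 0.019 for Psmb8, -0.013 for Psmc2, -0.038 for Psmc3, 0.26 for Psmd5, -0.21 for Psmd8, 0.13 for Psme2, 0.17 for Psmg3 and -0.15 for Akirin2. The ratio differences of Psma8 to Psma7 and Psmb10 to Psmb7 then became -0.16 and -0.12. As a difference of medians, the ratios gave -0.43 for Psma8 to Psma7, 0.016 for Psmb8 to Psmb5 and -0.26 for Psmb10 to Psmb7. Leaving out 1 library at a time gave ranges that crossed 0: -0.70 to 1.18 for Psma8, -0.18 to 0.31 for Psmb10, -0.12 to 0.22 for Psmb6, -0.17 to 0.031 for Psmb7, -0.22 to 0.26 for Psmb8, -0.17 to 0.10 for Psmd5, -0.17 to 0.042 for Psme2, -0.18 to 0.14 for Psme3 and -0.10 to 0.25 for the ratio of Psmb10 to Psmb7. The cause was not tested.

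With the replicate number as a block, 0 proteasome genes were called, 0 had an unadjusted p under 0.05, the smallest adjusted p was 0.82, and Psmb10 became -0.017. The share of all genes at that unadjusted threshold in this fit is not given here. No pairing by number is stated for the libraries. Same-numbered libraries correlated between -0.40 and 0.61, but differently numbered ones were not compared, so these values cannot decide whether the numbers pair them. Depth limits the low genes: the smallest count in a library was 1 for Psmb8 and Psmg3, and 5 for Psmb9 and Psma8.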
